A study of Mus musculus with 8 samples.

Results

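The 40 genes described here act in the G2 phase and mitosis and were followed through 5 h of lipopolysaccharide (LPS), with and without melatonin, in RAW264.7 cells, a mouse macrophage line that grows continuously in culture. The genes were taken from a named list that was chosen with earlier results of these data known. Their contrast with all genes is therefore not independent of the data. All 40 of 40 were represented on the array and well above background on all 8 arrays, out of 20080 genes or unnamed probes that were tested. Total RNA was labelled with Cy3 and hybridised to 1-colour oligonucleotide arrays, 1 array for each of 8 conditions. In the melatonin arm, the cells received 1 mM melatonin for 1 h and were then harvested (0 h) or exposed for 1, 3 or 5 h to LPS at 100 ng/ml. The other arm received no melatonin and was harvested at 0 h or after 1, 3 or 5 h of the same LPS. Because each condition is a single array, a difference between 2 arrays has no replicate check. The tests pooled the arms to compare LPS times, and pooled the times to compare the arms, and a p-value covers no more than the variation among these 8 arrays. All 8 arrays lay on 1 slide, with an arm in each row and an LPS time in each column. LPS time therefore cannot be told apart from slide column or from hours in culture, and melatonin cannot be told apart from slide row.

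Cells enter mitosis when the kinase Cdk1, bound to cyclin B, is switched on. Aurora and Polo-like kinases, kinesin motors and the kinetochore then align the chromosomes, and the anaphase-promoting complex destroys cyclin B and the inhibitor of separase so that the chromatids part. The mRNAs for this machinery are made in a wave late in the cell cycle. The MuvB complex drives that wave together with B-Myb and FoxM1, and represses it together with p130 and E2F4 in resting cells, through a promoter element called the cell cycle genes homology region (CHR). In macrophages, LPS is known to slow proliferation while the inflammatory programme is switched on.

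Values below are log2 signals minus the array's 75th percentile, so 0 marks a spot as bright as that percentile, and a difference of -1 is a 2-fold lower signal. A gene is said to have fallen or risen where limma's additive model of LPS time and melatonin gave a Benjamini-Hochberg adjusted p under 0.05 over all 20080 genes. The macrophage identity of the cells showed in their markers: 10 of 10 were well above background, and the log2 of their summed level was 9.73 to 9.89 on the melatonin arrays and 9.92 to 10.15 on those without. Of 9 B, T and NK cell markers 3 passed the filter (Ms4a1, Cd3e and Cd4), and the log2 of their summed level was 2.27 to 2.78. Of 8 fibroblast and epithelial markers only Col1a2 passed, with levels of -4.39 to -2.56. The share of probes well above background was 47.0% to 49.8% on the melatonin arrays and 49.1% to 53.0% on the others. The LPS response was present in both arms but differed in size. Tnf had levels of 2.54, 6.79, 7.40 and 7.42 at 0, 1, 3 and 5 h with melatonin, and 2.72, 7.52, 8.48 and 8.13 without. All 4 LPS check genes (Tnf, Il1b, Nos2 and Il6) were above their 0 h level at 5 h in both arms. All 4 were lower with melatonin at each LPS time, with a median difference of -2.1 at 1 h, -1.65 at 3 h and -1.07 at 5 h. The treatment field of the labels places the melatonin arrays a step later than their titles do, and the titles, sample descriptions and source names were followed here. That field gives no LPS time for the last of them. Over 1886 genes that differed from 0 h by at least 2 on the log2 scale at any LPS time without melatonin, with the 40 left out and each gene centred within its arm, the melatonin arrays titled 0, 1 and 3 h correlated best with the array of the titled time from the arm without melatonin (r = 0.888, 0.725 and 0.719), and less well with the array of the next time (0.433, -0.585 and 0.634).

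Most promoters of these genes held the letters of the element that MuvB is known to bind. A window of 250 bases before to 50 bases after the start of transcription was given by RefSeq (GRCm38.p6) for 35 of the 40 genes, all but Ccna2, Aurkb, Cdc25c, Kif20a and Tpx2. The CHR letters TTTGAA stood on either strand in 28 of the 35 (80%), against 20.2% of 27025 genes with such a window. The CCAAT box, the site of the factor NF-Y, was found as CCAAT on either strand in 28 of 35 (80%), against 41.1% of all genes, and in at least 2 copies in 19 (54.3%), against 13.3%. Both elements were present in 24 (68.6%), against 8.97% of all genes. An E2F motif (TTCCCGC or TTGGCGC, either strand) was found in 5 (14.3%), against 7.79%. Ect2 and Prc1 each had 2 overlapping windows, which made 37 windows for the 35 genes. Sites shared by such a pair were counted in each window. Of 115 matches so counted, 10 overlapped another match. In 26 genes a CHR match began within 50 bases of the start, and 7 windows had none (Birc5, Ccnb1, Bub1, Cenpe, Nusap1, Nek2 and Nuf2). The windows of Birc5, Nusap1 and Nuf2 held no CHR, CCAAT or E2F match, and all 3 of these genes fell at 5 h. Motif matches are letters in a window and were not tested for binding. The windows of 5 genes are shown because their signals took different courses: Fbxo5 (chr10:5805416-5805715, minus strand) was called at 1 h, as was Kifc1 (chr17:33890584-33890883, minus strand) on 1 of its 2 probes, Plk1 (chr7:122159185-122159484, plus strand) had the widest melatonin difference before LPS, and Cdk1 (chr10:69352863-69353162, minus strand) and Ube2c (chr2:164769679-164769978, plus strand) did not pass the test at 5 h. All 5 windows shown hold CHR and CCAAT matches, and those of Birc5, Nusap1 and Nuf2, which hold neither, are not shown. Each sequence reads 5′ to 3′ on the strand of its gene, and capitals mark CHR, CCAAT and E2F matches.
Fbxo5: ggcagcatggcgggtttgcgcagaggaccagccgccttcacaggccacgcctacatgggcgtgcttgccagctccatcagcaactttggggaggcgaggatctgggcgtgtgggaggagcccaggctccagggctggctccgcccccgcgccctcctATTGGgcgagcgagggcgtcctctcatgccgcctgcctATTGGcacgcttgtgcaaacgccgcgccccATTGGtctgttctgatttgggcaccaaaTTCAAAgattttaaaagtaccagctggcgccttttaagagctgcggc
Kifc1: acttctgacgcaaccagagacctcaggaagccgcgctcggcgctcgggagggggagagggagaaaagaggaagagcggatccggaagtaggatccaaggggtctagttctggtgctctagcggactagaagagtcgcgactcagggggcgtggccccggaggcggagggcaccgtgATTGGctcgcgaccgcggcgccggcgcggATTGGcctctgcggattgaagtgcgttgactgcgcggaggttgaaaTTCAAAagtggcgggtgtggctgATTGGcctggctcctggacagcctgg
Plk1: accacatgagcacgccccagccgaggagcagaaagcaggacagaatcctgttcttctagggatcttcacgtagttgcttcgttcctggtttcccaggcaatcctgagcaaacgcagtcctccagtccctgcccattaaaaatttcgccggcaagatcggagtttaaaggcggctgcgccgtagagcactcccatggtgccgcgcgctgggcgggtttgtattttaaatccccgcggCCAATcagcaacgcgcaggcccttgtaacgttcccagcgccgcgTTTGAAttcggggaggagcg
Cdk1: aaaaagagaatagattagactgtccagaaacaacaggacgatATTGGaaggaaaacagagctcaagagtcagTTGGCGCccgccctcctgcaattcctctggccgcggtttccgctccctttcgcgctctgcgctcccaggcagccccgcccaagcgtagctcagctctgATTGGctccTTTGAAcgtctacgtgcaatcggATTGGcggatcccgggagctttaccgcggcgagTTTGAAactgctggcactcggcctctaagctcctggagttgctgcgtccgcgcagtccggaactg
Ube2c: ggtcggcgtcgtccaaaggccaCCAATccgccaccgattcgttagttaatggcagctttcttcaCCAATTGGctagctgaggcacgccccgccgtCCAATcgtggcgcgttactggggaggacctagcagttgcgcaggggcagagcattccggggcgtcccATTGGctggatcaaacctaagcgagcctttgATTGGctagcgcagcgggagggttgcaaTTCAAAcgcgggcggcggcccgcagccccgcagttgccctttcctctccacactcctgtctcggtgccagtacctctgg
The windows of Fbxo5, Kifc1, Cdk1 and Ube2c each held a CHR match within 50 bases of the start and at least 3 CCAAT matches. Fbxo5 was called at 1 h and Kifc1 at 1 h on 1 of its 2 probes, while Ube2c was level and Cdk1 nearly level over 5 h without melatonin. Whether such matches relate to the course of a signal was not tested.

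Nearly all of the mitotic mRNAs were lower by 5 h of LPS. At 1 h 2 of the 40 had fallen on the brightest probe of each gene, Fbxo5 and Kifc1, where 0.284% of all genes tested fell. Dimmer probes of Kif22, Top2a and Prc1 were lower at 1 h too, with values given beside the probes. At 3 h 32 had fallen, against 15.1% of all genes, and at 5 h 38 had, against 19.4%. None of the 40 rose at any of these times, when 1.67%, 18.6% and 24.9% of all genes did. The median change of the 40 was -0.10 at 1 h, -0.92 at 3 h and -1.29 at 5 h, where the median of all genes tested was -0.01, 0.06 and 0.08. At 5 h the changes ranged from -2.61 to -0.98 with melatonin and from -2.03 to -0.06 without. The macrophage markers had no common direction, with 2 of 10 lower and 4 higher at 5 h. Under quantile normalization 35 and 38 of the 40 fell at 3 and 5 h, while over all genes the share of calls that were higher was 42.4% and 43.2%, against 55.2% and 56.2% as scaled here. The 1, 3 and 5 h comparisons share the 0 h arrays, so their counts are not independent. The count at 3 h was 12 when the melatonin 3 h array was left out, 8 without the other 3 h array, and 15 or 21 without the 0 h array of the melatonin or the other arm, while no such omission took the count at 5 h below 32. With the times of the treatment field, 0 of all genes tested were called at any LPS time. In bulk RNA of this kind, fewer cells in mitosis and less of each mRNA per mitotic cell cannot be told apart.

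**Figure D1:**
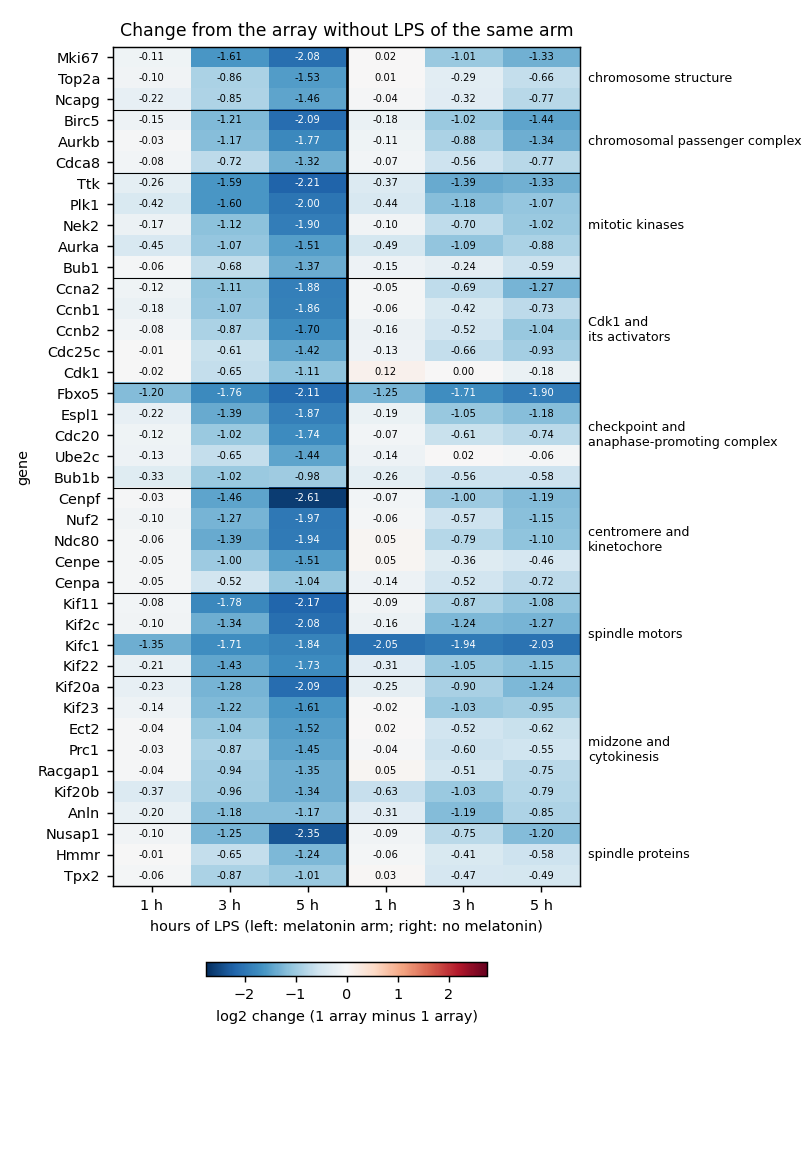
Log2 change of each of the 40 genes after 1, 3 and 5 h of LPS from the 0 h array of the same arm, with the melatonin arm on the left and the arm without melatonin on the right; genes are grouped by role and blue marks lower signal. The columns at 1 h are pale except for Fbxo5 and the brightest probe of Kifc1, and the melatonin column at 5 h is the darkest, with changes from -2.61 (Cenpf) to -0.98 (Bub1b).

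Most of the fall came between 1 and 3 h. In that step 15 of the 40 fell, where 6.81% of all genes did, with a median change of -0.72 against 0.04 for all genes. Of all genes called in this step 55.2% were higher, and 42.6% under quantile normalization. The 15 were Mki67, Birc5, Aurkb, Plk1, Ttk, Ccna2, Fbxo5, Espl1, Kif22, Kif2c, Kif23, Racgap1, Anln, Ndc80 and Tpx2. Between 3 and 5 h 0 of 40 passed limma's test, where 0.0598% of all genes fell, although 13 had an unadjusted p under 0.05 and the median change was -0.38. Arm by arm, the later step had a median of -0.58 with melatonin and -0.19 without, and 38 genes with melatonin and 33 without were lower at 5 h than at 3 h. In the melatonin arm 38 genes were lower at each successive time, and without melatonin 23 were. The count for the step from 1 to 3 h depended on single arrays: it was 0 or 1 without either 1 h array or either 3 h array, and 30 without either 5 h array.

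Most of these mRNAs were lower in melatonin-treated cells. Over the 4 times together 28 of the 40 were lower with melatonin and 0 were higher, where 25.3% of all genes tested were lower and 15.3% higher. The median difference was -0.52, against -0.10 for all genes. At 0 h all 40 were lower on the melatonin array, with a median of -0.30, while 59.0% of all genes were below 0 with a median of -0.08. At 1 h 37 were lower (median -0.29), at 3 h 39 (median -0.62) and at 5 h 40 (median -1.0), and the median of all genes stayed between -0.10 and -0.08. By 5 h, 20 of the 40 had a melatonin signal at least 2-fold lower than the signal without melatonin, at 3 h 4 had, and at 0 and 1 h 0 had. The macrophage markers moved in the same direction over the melatonin arrays: 7 of 10 were lower and 0 higher, with a median of -0.42, and their part in the result was not tested. With quantile normalization, as with the deposited table of processed values, 18 of the 40 were lower and 0 higher, and over all genes 52.6% of calls were then higher, against 37.7% as scaled here. Without the 3 h array of either arm 10 of the 40 were lower. Apart from the treatment field's times, 10 of the 28 melatonin calls were kept under every alternative (Ccnb2, Ccna2, Bub1b, Cenpa, Tpx2, Anln, Fbxo5, Espl1, Nuf2 and Cdca8). The calls of Birc5, Aurka, Kif20b, Kif23, Top2a, Ube2c and Ncapg were lost in 9 to 14 of 17. With the times of the treatment field 1 was, and the differences of Birc5, Aurkb, Kif23 and Fbxo5 turned positive without passing the test.

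**Figure D2:**
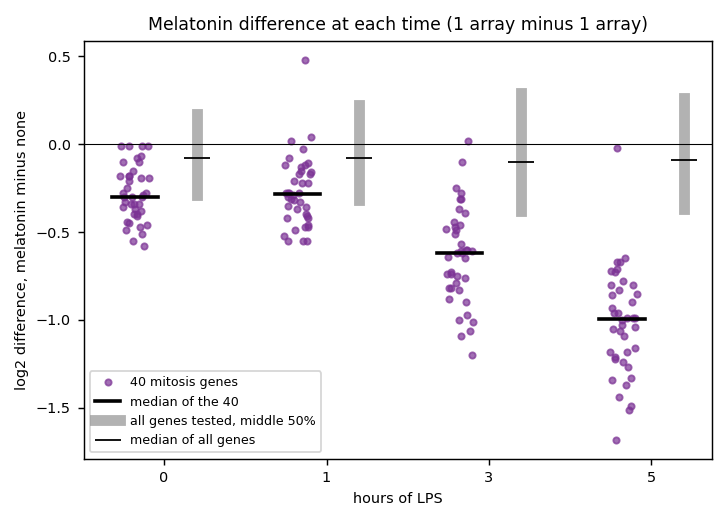
Log2 difference, melatonin minus no melatonin, for each of the 40 genes (points) at 0, 1, 3 and 5 h of LPS, with their median (thick line) beside the interquartile range of all genes tested (grey bar) and its median (thin line). The points sit at a median of -0.30 at 0 h and -1.0 at 5 h, while the median of all genes lies between -0.10 and -0.08 at each time; the point at 0.48 at 1 h is Kifc1.

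The gap between the arms was wider late than early for most of the genes. At 5 h the change from 0 h was larger in the melatonin arm for 39 of the 40, the exception being Kifc1, and the median change corresponded to a 3.28-fold lower signal with melatonin and a 1.92-fold lower signal without. At 3 h 34 genes had changed more with melatonin, the others being Aurka, Cdc25c, Cenpa, Kif20b, Kifc1 and Anln, and at 1 h 19 had. The melatonin array at 5 h held the lowest level of all 8 arrays for 37 genes, all but Bub1b, Kifc1 and Anln. A model with a term for a different melatonin effect at 3 and 5 h gave a median of -0.54 for that term over the 40, and 0 of them passed limma's test in either direction, where 0.264% of all genes did in the lower direction. The lowest adjusted p was 0.058, for Kif11, and 30 of the 40 had an unadjusted p under 0.05. Restricting the test to genes well above background on all 8 arrays brought 3 below the threshold, Kif11, Mki67 and Nuf2. A term for melatonin with any LPS gave 0 calls among the 40 and 0% among all genes, with no member at an unadjusted p under 0.05. Across the 40 genes, the changes at 5 h in the arms, which share no array, had a Pearson r of 0.70 and a Spearman rho of 0.788, and the melatonin differences at 0 h and at 5 h had an r of 0.231 and a rho of 0.21, as descriptions of genes measured on the same arrays.

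**Figure D3:**
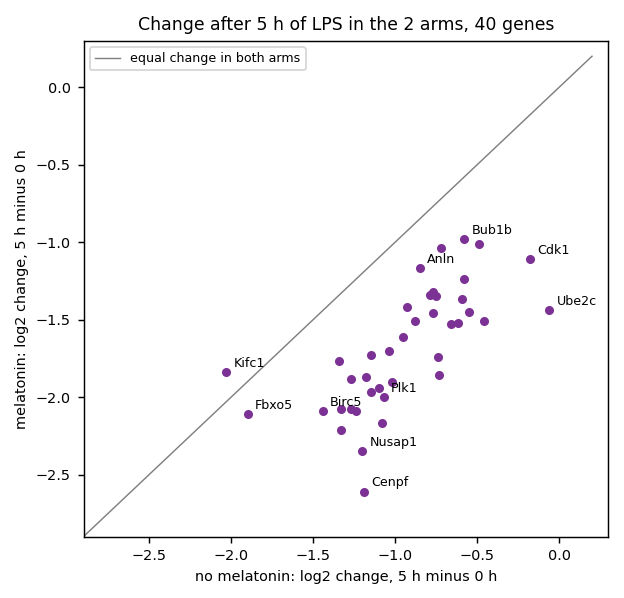
Log2 change after 5 h of LPS in the melatonin arm (vertical) against the change without melatonin (horizontal), 1 point per gene, with the line of equal change. All points but Kifc1 lie below the line, and Ube2c and Cdk1 stand at the right with -1.44 and -1.11 in the melatonin arm, against -0.06 and -0.18 without.

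Cdk1 and its activators differed in how far they moved. Cdk1, the kinase that starts mitosis, had levels of 0.82, 0.80, 0.17 and -0.29 at 0, 1, 3 and 5 h with melatonin, and 1.22, 1.35, 1.23 and 1.04 without (probe at chr10:68805423-68807832, mm9). Its mRNA was thus nearly level over LPS without melatonin and lower at each later time with it. The pooled change at 5 h, the smallest of the 40, was -0.65 ± 0.23 (SE) with a limma adjusted p of 0.0688 and did not pass, while the melatonin difference of -0.84 ± 0.17 did (adjusted p = 0.0131). Ccnb1 and Ccnb2, the B-type cyclins that activate Cdk1, fell at 5 h by 1.30 and 1.37 on the log2 scale, and Ccna2, cyclin A2, which acts from S phase to early mitosis, by 1.57. Ccnb1 had 3.34, 3.16, 2.28 and 1.48 with melatonin, against 3.70, 3.64, 3.28 and 2.97 without, so its change at 5 h was -1.86 with melatonin and -0.73 without. Cdc25c, the phosphatase that removes the inhibitory phosphates of Cdk1, fell by 1.18 at 5 h and had a melatonin difference of -0.23 that did not pass (adjusted p = 0.153).

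The mitotic kinases all fell at 5 h, and 4 of 5 at 3 h. Plk1, the Polo-like kinase of mitotic entry and spindle assembly, had levels of 3.94, 3.52, 2.34 and 1.94 with melatonin and 4.52, 4.08, 3.34 and 3.45 without (probe at chr7:129313220-129313279, mm9). The melatonin array was the lower at each time, by 0.58 at 0 h, the widest such gap of the 40 before LPS. Its change at 5 h was -1.54 ± 0.24, a 2.90-fold lower signal (adjusted p = 0.00446), and its melatonin difference was -0.91 ± 0.17 (adjusted p = 0.0106). Without melatonin the level at 5 h was above that at 3 h, and the same was true of Ttk (-0.47 at 5 h and -0.52 at 3 h) and Aurka (4.37 and 4.17). Ttk, the spindle checkpoint kinase also called Mps1, fell by 1.77 at 5 h, Nek2, a kinase that splits the centrosomes, by 1.46, Aurka, the spindle-pole Aurora kinase, by 1.20 and Bub1, a checkpoint kinase of the kinetochore, by 0.98. Bub1 was the kinase not yet called at 3 h (-0.46, adjusted p = 0.158). Plk1, Aurka and Bub1 were lower with melatonin, and the differences of Ttk and Nek2 did not pass (adjusted p = 0.0542 and 0.0792).

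The chromosomal passenger complex, which corrects faulty spindle attachments and then guides the cleavage furrow, was lower in all 3 of its listed subunits. The kinase Aurkb, the survivin subunit Birc5 and the borealin subunit Cdca8 fell at both 3 and 5 h, and each was lower with melatonin. Birc5, the gene with the brightest probe of the 40, had 5.22, 5.07, 4.01 and 3.12 with melatonin, against 5.47, 5.29, 4.45 and 4.02 without (probe at chr11:117716959-117717018, mm9). Both arms were lower at each later time, and the arms lay 0.90 apart at 5 h. The pooled change was -1.77 ± 0.17 at 5 h, a 3.41-fold lower signal (adjusted p = 0.00103), and the melatonin difference was -0.45 ± 0.12 (adjusted p = 0.0300). Aurkb fell by 1.56 and Cdca8 by 1.05 at 5 h.

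**Figure D4:**
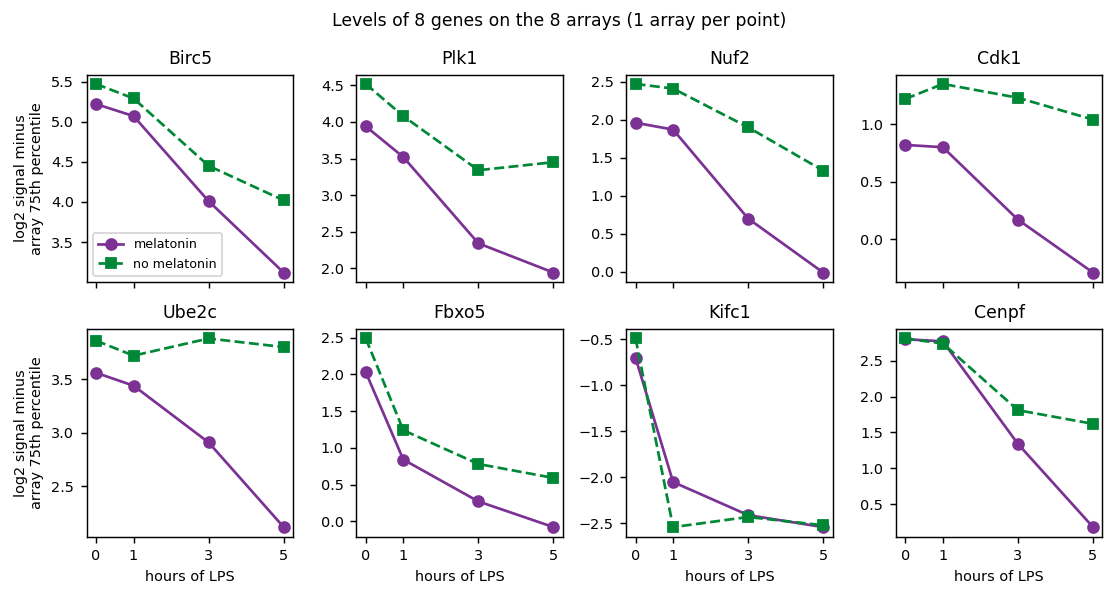
Levels of 8 of the genes on the 8 arrays over hours of LPS, in log2 signal minus the array's 75th percentile, with the melatonin arm in purple and the arm without melatonin in green, 1 array per point. Fbxo5 and the brightest probe of Kifc1 drop within 1 h in both arms, while Cdk1 and Ube2c end at -0.29 and 2.12 with melatonin, against 1.04 and 3.8 without.

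Genes of the anaphase-promoting complex and its checkpoint held an early change, that of Fbxo5, and the mRNA that changed least at 5 h without melatonin, that of Ube2c. Fbxo5 encodes Emi1, which inhibits the anaphase-promoting complex until mitosis begins. Its levels were 2.03, 0.84, 0.27 and -0.08 at 0, 1, 3 and 5 h with melatonin, and 2.49, 1.24, 0.78 and 0.59 without (1 probe, chr10:4546271-4546763, mm9). Of the change at 5 h, 56.6% was already present at 1 h with melatonin and 65.8% without. The pooled changes were -1.22 ± 0.10 at 1 h, a 2.33-fold lower signal (adjusted p = 0.00589), and -2.01 ± 0.10 at 5 h, a 4.01-fold lower signal (adjusted p = 0.000217) and the largest change of the 40. The call at 1 h was lost when the 1 h array with LPS alone was left out (adjusted p = 0.0811). Ube2c, the ubiquitin-conjugating enzyme that works with the complex, had 3.56, 3.44, 2.91 and 2.12 with melatonin, against 3.86, 3.72, 3.88 and 3.8 without (probe at chr2:164598016-164598075, mm9). Without melatonin the 4 levels lay close together, and at 5 h the melatonin array was lower by 1.68, the widest gap of the 40 at that time. Its pooled change at 5 h (-0.75 ± 0.34) did not pass (adjusted p = 0.127), and its melatonin difference (-0.80 ± 0.24) did (adjusted p = 0.0438), a call lost in 12 of 17 alternatives. Cdc20, the activator of the complex in mitosis, fell by 1.24 at 5 h, Espl1, the separase that cuts the ring holding sister chromatids together, by 1.53, and Bub1b, the checkpoint protein BubR1, by 0.78. All 5 genes of this group were lower with melatonin.

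The kinetochore and centromere genes fell in 4 of 5 cases at 3 h and in 5 of 5 at 5 h. With the times pooled, 2 of 5 were lower with melatonin, where 25.3% of all genes tested were. Nuf2, a subunit of the Ndc80 complex that grips microtubules, had 1.96, 1.87, 0.70 and -0.01 with melatonin, against 2.47, 2.41, 1.90 and 1.33 without (probe at chr1:171428648-171428707, mm9). The melatonin arrays were lower at all 4 times, by 1.20 at 3 h, the widest gap of the 40 at that time. Its change at 5 h was -1.56 ± 0.23 (adjusted p = 0.00405) and its melatonin difference -0.90 ± 0.16 (adjusted p = 0.0105). Cenpf, a large kinetochore protein, had 2.80, 2.77, 1.34 and 0.18 with melatonin, against 2.81, 2.74, 1.81 and 1.62 without. The arms were together until 1 h and 1.44 apart at 5 h, and the pooled melatonin difference did not pass (-0.47, adjusted p = 0.174). Cenpf changed most of all in the melatonin arm, by -2.61 at 5 h, and fell by 1.90 with the arms pooled. Ndc80, the partner of Nuf2, fell by 1.52 at 5 h, Cenpe, a kinetochore motor, by 0.98 and Cenpa, the histone H3 variant that marks centromeres, by 0.88. Cenpa was lower with melatonin (-0.45, adjusted p = 0.0104).

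The 4 spindle motors fell at 3 and 5 h, and Kifc1 was lower already at 1 h on its brightest probe. Kifc1, a minus-end-directed kinesin that bundles spindle microtubules, had -0.70, -2.05, -2.41 and -2.54 with melatonin and -0.49, -2.54, -2.43 and -2.52 without on its brightest probe (chr17:34023362-34023421, mm9). That probe dropped within 1 h in both arms. Without melatonin it then stayed level, while with melatonin it was lower again by 0.36 at 3 h than at 1 h, and 73.7% of its 5 h change was present at 1 h. Its pooled melatonin difference did not pass (0.07 ± 0.13, adjusted p = 0.691). Its change at 1 h was -1.70 ± 0.18 (adjusted p = 0.0144). The other probe, annotated to the RefSeq transcript, gave another course: -2.32, -2.24, -3.24 and -3.68 with melatonin and -2.26, -2.50, -3.40 and -3.85 without, so it was 0.08 higher and 0.24 lower than at 0 h at 1 h and had its decline later. With the mean of both probes the 1 h change of Kifc1 was -0.89 and not called (adjusted p = 0.0543), and the call at 1 h was lost in 8 of 17 alternatives. Kifc5b, a closely related gene that also lies on chromosome 17, had -1.95, -2.05, -3.35 and -3.88 with melatonin and -2.51, -3.0, -3.81 and -4.10 without, and cross-hybridisation between the pair was not tested. Kif11, the motor that pushes the spindle poles apart, fell by 1.62 at 5 h with levels of -0.51, -0.59, -2.28 and -2.67 with melatonin, against -0.32, -0.42, -1.19 and -1.40 without. Kif2c, which takes microtubules apart at the centromere, fell by 1.67, and Kif22, which pushes chromosome arms outwards, by 1.44. Of these 4 motors only Kif22 was lower with melatonin (-0.66, limma adjusted p = 0.0116), where 25.3% of all genes tested were lower.

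Genes of the spindle midzone and of cytokinesis fell at 5 h in 7 of 7 cases, and 6 of 7 were lower with melatonin, all but Ect2 (-0.47, adjusted p = 0.0614). Of those 6 melatonin calls, that of Anln was lost in 1 of 17 alternatives, the treatment field's times, and those of Kif20a in 5, Racgap1 in 7, Prc1 in 8, Kif23 in 9 and Kif20b in 14. Anln, the scaffold anillin of the contractile ring, had 2.72, 2.52, 1.54 and 1.55 with melatonin, against 3.19, 2.89, 2.0 and 2.35 without. Without melatonin it was lowest at 3 h, and with melatonin it was level from 3 to 5 h. Its pooled change was -1.18 ± 0.12 at 3 h (limma adjusted p = 0.00200) and -1.01 at 5 h (adjusted p = 0.00205). Kif20a, a midzone kinesin also called Mklp2, fell by 1.66 at 5 h, and Kif20b, a further kinesin of cytokinesis, by 1.07. Kif23 and Racgap1, the kinesin and the GTPase-activating protein that form centralspindlin, fell by 1.28 and 1.05. Ect2, the RhoA exchange factor that centralspindlin recruits, fell by 1.07, and Prc1, the microtubule bundler of the midzone, by 1.00. The 3 probes of Kif23 that were well above background on all 8 arrays did not agree in size: at 5 h they ranged from -1.71 to -0.15 with melatonin and from -0.96 to -0.23 without.

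Chromosome and spindle proteins made up the rest. Mki67, the coat protein of mitotic chromosomes used as a marker of cycling cells, had 5.18, 5.07, 3.57 and 3.1 with melatonin, against 5.46, 5.48, 4.45 and 4.14 without. It was lower at 3 and 5 h in each arm, with a pooled change of -0.04 at 1 h (adjusted p = 0.948), of -1.71 ± 0.19 at 5 h (adjusted p = 0.00170) and a melatonin difference of -0.65 ± 0.14 (adjusted p = 0.0151). Top2a, the topoisomerase that untangles chromatids, fell by 1.10 at 5 h and Ncapg, a subunit of condensin, by 1.11, and both were lower with melatonin. Nusap1, a microtubule-bundling protein, had 2.01, 1.91, 0.76 and -0.33 with melatonin, against 2.09, 2.0, 1.33 and 0.89 without. The arms were 0.08 apart at 0 and at 1 h and 1.22 apart at 5 h, and the fall at 5 h was 1.77. Hmmr, a spindle and hyaluronan-binding protein, fell by 0.91 and Tpx2, which activates Aurora A on the spindle, by 0.75. Tpx2 was lower with melatonin (-0.59, adjusted p = 0.00934) while the differences of Nusap1 and Hmmr did not pass (adjusted p = 0.0994 and 0.208).

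Results per gene rested on the brightest probe, and the other probes of the 40 genes went the same way at 5 h but not all at 1 h. Of 77 probes, 68 were well above background on all 8 arrays, among them the brightest probe of each gene, and all 68 were lower at 5 h than at 0 h in each arm. With melatonin 67 of them were lower at 5 h and 66 at 3 h. At 1 h, 4 of these probes that were not the brightest of their gene had changed by -0.8 or lower in both arms, a limit chosen after the values were seen. That of Kif22 changed by -1.05 with melatonin and -1.44 without, where the brightest probe of Kif22 changed by -0.21 and -0.31. A pair of Top2a probes changed by -1.08 and -0.89 with melatonin, and by -0.90 and -1.33 without, where the brightest changed by -0.10 with melatonin and 0.01 without. That of Prc1 changed by -0.83 with melatonin and -0.95 without, where the brightest changed by -0.03 and -0.04. These probes are annotated to other accessions than the brightest ones, and single probes were not tested. In 2 of the 18 genes with more than 1 such probe (Kif23 and Top2a) the probes' changes at 5 h lay more than 1 apart on the log2 scale in an arm. Top2a ranged from -1.96 to -1.53 with melatonin and from -1.88 to -0.66 without.

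Most of the other listed genes of mitosis and DNA replication were lower over the same hours of LPS. Of 80 further mitosis genes 56 fell at 3 h and 63 at 5 h, and 3 rose at each time. Of 47 genes of the G1/S transition and DNA replication 33 and 41 fell, and 1 and 2 rose. Of all genes tested, 15.1% and 19.4% fell at 3 and 5 h, and 18.6% and 24.9% rose. At 5 h the largest changes in the mitosis list were those of Depdc1b (-2.59), Arhgef39 (-2.41), Sapcd2 (-2.27) and Mastl (-2.16), the Greatwall kinase that restrains the phosphatase opposing Cdk1. In the replication list they were those of Tk1, thymidine kinase (-3.72), Chaf1b, a histone chaperone subunit (-1.69), Pole2, a subunit of DNA polymerase epsilon (-1.64), and Pold1, the catalytic subunit of DNA polymerase delta (-1.61). With melatonin, 31 of the 80 (38.8%) were lower and 2 higher, and 23 of the 47 (48.9%) were lower and 0 higher, with medians of -0.31 and -0.29, where 70.0% of the 40 and 25.3% of all genes were lower. The term for a different melatonin effect at 3 and 5 h had a median of -0.28 in the mitosis list and of 0.23 in the replication list, with 1 gene lower in the mitosis list and 1 higher in the other.

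Transcription factors of the cell cycle fell in 14 of 20 cases (70%) at 5 h and rose in 2 (10%), against 19.4% and 24.9% of all genes. With melatonin 6 were lower (30%) and 4 higher (20%), near the 25.3% and 15.3% of all genes. The median melatonin difference of the list was -0.03. Foxm1, an activator of mitotic genes, had 2.33, 1.97, 0.35 and -0.30 with melatonin, against 2.67, 2.25, 0.91 and 0.69 without. It fell by 2.31 at 5 h and was lower with melatonin (-0.54, adjusted p = 0.0222). Mybl2, which encodes B-Myb, fell by 0.81 and was lower with melatonin by 0.49 (adjusted p = 0.00340). Among the E2F genes, the activators E2f1 and E2f2 fell by 1.86 and 3.23 at 5 h, and the repressors E2f7 and E2f8 by 2.54 and 2.15. E2f2 had 2.66, 2.07, 0.11 and 0.14 with melatonin, against 2.99, 2.13, -1.01 and -0.94 without. It was thus higher with melatonin at 3 and 5 h, the opposite of most mitotic genes. Tfdp2, a partner of E2F, fell by 3.30 and was higher with melatonin (0.69, adjusted p = 0.00722).

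Genes that hold back or release entry into mitosis moved in both directions. Of 18 tested (21 listed), 10 fell (55.6%) and 5 rose (27.8%) at 5 h, against 19.4% and 24.9% of all genes. With melatonin 2 were lower (11.1%) and 5 higher (27.8%), against 25.3% and 15.3% of all genes. Gadd45a and Gadd45b, stress-induced proteins that restrain Cdk1 among other actions, rose by 3.77 and 4.44 at 5 h. Cdkn1a, the Cdk inhibitor p21, had 4.38, 5.52, 5.19 and 5.18 with melatonin, against 3.60, 5.30, 4.94 and 4.77 without. It rose by 1.41 at 1 h (adjusted p = 0.0109) and was higher with melatonin on every array pair, by 0.42 when pooled (adjusted p = 0.0221). Cdkn1b, the inhibitor p27, fell by 1.32 at 5 h and was higher with melatonin (0.45, adjusted p = 0.0158). Wee1, the kinase that inhibits Cdk1, fell already at 1 h (-0.66, adjusted p = 0.0308) and by 1.53 at 5 h. Pkmyt1, its membrane-bound relative, fell by 0.59, and Cdc25b, a phosphatase that activates Cdk1, by 1.96. Cdc25a, the phosphatase of the G1/S transition, rose by 0.34 at 5 h (adjusted p = 0.0453) and was lower with melatonin (-0.31, adjusted p = 0.0251). Chek2, a DNA damage checkpoint kinase, and Cdkn2c, a Cdk4 and Cdk6 inhibitor, fell by 2.39 and 2.29.

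The core anaphase-promoting complex list had calls in both directions at near the shares of all genes, and the G1 regulators moved in both directions. Of 15 genes, the core subunits and the co-activator Fzr1, 3 fell (20%) and 4 rose (26.7%) at 5 h. Of all genes, 19.4% fell and 24.9% rose. Changes in the list ran from -0.55 (Anapc2) to 0.64 (Cdc26). Fzr1, which activates the complex after mitosis, changed by -0.05 at 5 h (adjusted p = 0.745). Among 7 G1 cyclins, kinases and Myc, 3 fell and 3 rose at 5 h. Myc, a transcription factor of cell growth, had -6.63, -4.20, -1.06 and -0.92 with melatonin, against -6.76, -0.24, 2.01 and 1.64 without, and was well above background on 6 arrays. Cdk6 and Ccnd2, which act in G1, rose by 2.11 and 1.38 at 5 h, and Ccnd1, cyclin D1, fell by 1.85.

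**Figure D5:**
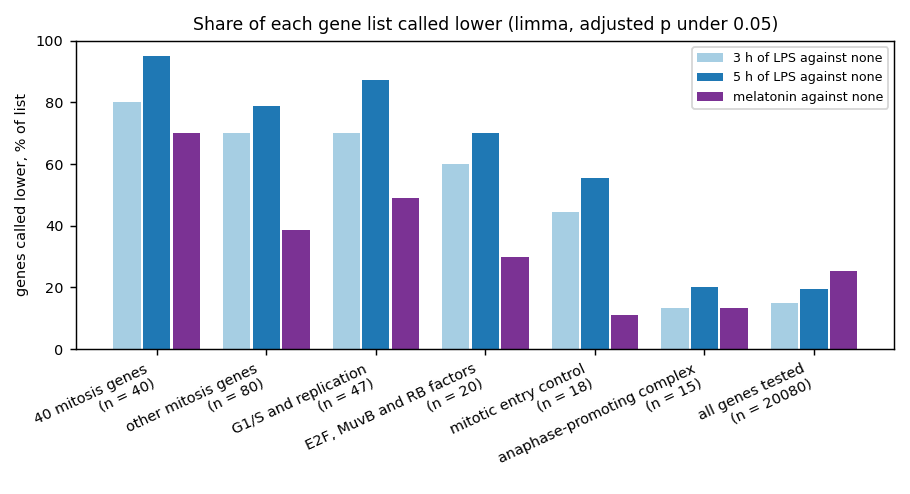
Share of the genes of each list called lower (limma, adjusted p under 0.05) at 3 h and 5 h of LPS against none and with melatonin against none, with n the genes tested. The 40 mitosis genes stand at 80.0%, 95.0% and 70.0%, the anaphase-promoting complex list at 13.3%, 20% and 13.3%, and all genes tested at 15.1%, 19.4% and 25.3%.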

How the data were processed

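Array intensity values and flags were those deposited, extracted with Agilent Feature Extraction 12.0.3.1 per the submitters' processing notes and the file headers. Probe positions are mm9, per the file headers. The deposited flag columns hold 1 or 0 and mark well above background, saturation and outliers, per the file headers. The deposited value table holds log2 values whose scaling is not stated in it (r with the scanner values 0.999 to 1.00 per array) and served as an alternative.

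From these, log2 processed signal minus each array's 75th percentile over non-control spots was computed and, after omission of 1066 outlier readings, replicate spots were averaged per probe. No spot was saturated. Of 56605 probes, the 30430 exceeding background clearly on 2 or more of the 8 arrays were kept, and the brightest probe stood for its gene. Symbols were updated through accessions that matched RefSeq (32994 probes). R 4.3.3 and limma 3.58.1 fitted LPS time plus melatonin on 8 arrays with an intensity trend, and further models added a melatonin by LPS or by late LPS (3 and 5 h) term. P-values were adjusted over all genes by Benjamini-Hochberg. The arrays have no counts, and their number limits the precision. The code was tested on simulated data. Other genes were named by a rule (up to 4 called genes per list with the largest change at 5 h, a set of regulators and check genes). Kifc5b was named after its values were seen. The members and lists were chosen with earlier results of these data known.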

Additional observations from a re-analysis of the deposited data

Results flagged for a closer look

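As scaled here, the term for a different melatonin effect at 3 and 5 h than at 0 and 1 h passed limma's test for 2 of the regulators named above. Both were in the opposite direction to the mitosis genes. For E2f2 it was 1.29 (adjusted p = 0.0384), with a melatonin difference of 1.08 at 5 h. For Ccnd1 it was 0.95 (adjusted p = 0.0384), with levels of 3.61, 3.40, 2.58 and 2.28 at 0, 1, 3 and 5 h with melatonin, against 4.15, 3.77, 2.07 and 1.79 without. Over all genes, 58 calls of this term were in the higher direction as scaled here. Under quantile normalization 1 was, with normexp 1 was, and with the deposited values 1 was. The calls of E2f2 and Ccnd1 therefore cannot both have been kept under any of these alternatives.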

How the results depend on the processing

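No paired analysis was possible because each condition has 1 array, so no replicate number could serve as a block beyond the additive model, which already compares the arms within each time. None of the 40 genes was called higher under any alternative run, scaling included. The count of members that fell at 5 h was 37 or 38 under the other scalings, filters and probe rules, and 32 to 40 when 1 array was left out. At 3 h it was 22 to 35, and 8 to 37 with 1 array left out. At 1 h it was 1 without a filter on dim probes, 1 with a common floor and 1 with the mean of all probes, and 0 to 3 with 1 array left out. In the step from 1 to 3 h it was 7 without the filter, 5 with a common floor and 5 without the intensity trend, and 0 to 30 with 1 array left out. With melatonin it was 18 under quantile normalization, with the deposited table, without the filter and with a common floor alike, and 10 to 29 with 1 array left out. The melatonin by late LPS term reached 3 calls with the filter of all 8 arrays, and 0 otherwise. With the times of the treatment field the counts were 0 at 1, 3 and 5 h and in the step from 1 to 3 h, and 1 with melatonin, and the melatonin differences of Birc5 (0.18), Aurkb (0.07), Kif23 (0.03), Fbxo5 (0.18), Pold1 (0.25), Foxm1 (0.27), E2f8 (0.13) and Wee1 (0.16) were reversed. That setting drops the melatonin 5 h array, which has no time in that field. Apart from it, 32 of the 38 genes called at 5 h kept their call under every alternative, 7 of 32 at 3 h and 10 of 28 with melatonin. The 1 h calls of Fbxo5 and Kifc1 were not kept under all, and none of the 15 of the step was. Over all genes, the share of calls that were higher was 14.3% with normexp against 36.8% in the step from 3 to 5 h (19 calls), and 7.69% against 52.3% for the late term (111 calls), where quantile normalization left 3 calls. The melatonin by LPS term could not be fitted without either 0 h array or with the treatment field. Where an alternative changed a count, the cause was not tested.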
